A study of Mus musculus with 9 samples.

Results

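Fragments of the nuclear threonine tRNAs were followed in mouse blood serum. They were chosen as reads whose every alignment lay on a mature nuclear Thr reference (anticodons AGT, CGT and TGT), with no value of theirs used in the choice. They numbered 4198 of 555585 reads on tRNA references, and 635 of 41240 distinct sequences. The libraries come from 3 groups of 3 mouse serum samples labelled week 20: a high fat diet with salvianolic acid B (SalB, a water-soluble polyphenol from danshen, the dried root of a sage), the high fat diet alone, and a normal diet. The study asks how SalB acts in atherosclerosis, for which the high fat diet group is the model. Titles of the normal diet libraries carry the strain name C57, while the sources used here do not give the strain and genotype of the other groups, the dose of SalB or the age of the mice. Diet or treatment and any difference of strain therefore cannot be told apart in the comparisons with normal diet. Whether replicates are different mice is not stated in the labels, so the p-values describe the spread among these libraries, and that spread may be technical. Serum could not be checked against marker genes, because the files hold tRNA alignments only.

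A threonine tRNA brings threonine to codons that begin with A and C. In the tRNA with anticodon AGT the first anticodon base, numbered 34, is an A that the cell turns into inosine, which a sequencer reads as G. Threonine tRNAs are also known to carry a threonine-linked adenosine at 37, a methylated C at 32 and a methylated A in the T loop at 58. Nucleases cut tRNAs in the anticodon loop, which gives long stress-induced pieces, and in the D and T loops, which gives shorter fragments that circulate in blood. The short pieces that end in the CCA tail, added to every tRNA after transcription, are called 3′ fragments here. Reads starting at the first base are called 5′, and all others internal.

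The reads were set on the references they align to, which were read off the deposited alignments and are shown because every result below is a piece of them. Capitals mark the anticodon, the A at 58 and the CCA tail. Positions are given in the usual tRNA numbering, in which the anticodon is 34 to 36 and the CCA tail 74 to 76, so that references of 77, 76 and 75 bases can be laid on each other. For Thr-CGT-2-1 the stretch from base 17 of the reference to its end at base 75 is shown. No aligned read covers the bases before it.
Thr-AGT-1-1: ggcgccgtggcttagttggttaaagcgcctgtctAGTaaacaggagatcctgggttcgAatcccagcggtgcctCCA
Thr-AGT-2-1: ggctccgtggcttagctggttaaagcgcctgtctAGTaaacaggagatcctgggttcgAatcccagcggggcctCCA
Thr-TGT-2-1: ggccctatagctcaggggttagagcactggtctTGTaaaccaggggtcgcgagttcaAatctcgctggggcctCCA
Thr-CGT-2-1: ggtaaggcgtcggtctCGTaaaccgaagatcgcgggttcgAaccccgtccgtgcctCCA
RefSeq (GRCm38.p6) lists 17 nuclear threonine tRNA genes: 9 with anticodon AGT, 4 with CGT and 4 with TGT. Of these, 7 lie on chromosome 13, 5 on chromosome 11, 3 on chromosome 14 and 1 each on chromosomes 7 and 16. A run of 3 AGT genes on chromosome 11 (chr11:69037853-69037926, chr11:69062744-69062817 and chr11:69110465-69110538) is one example. The deposited reference names are not paired with these genes, so no read is given a locus.

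The fragments that carry the results were the following, with capitals as above. The first set of 6 holds the main 3′ fragments of Thr-AGT and a shorter relative that stops ahead of the tail.
Thr-AGT 55 to 76: tcgAatcccagcggtgcctCCA
Thr-AGT-2 55 to 76: tcgAatcccagcggggcctCCA
Thr-AGT 59 to 76: atcccagcggtgcctCCA
Thr-AGT 60 to 76: tcccagcggtgcctCCA
Thr-AGT 61 to 76: cccagcggtgcctCCA
Thr-AGT 55 to 73: tcgAatcccagcggtgcct
The second set holds 2 pieces from the anticodon side of the same tRNA, of which the first is shared with Thr-CGT and Thr-TGT references, and the main 3′ fragments of the other anticodons.
Thr shared 41 to 54: aggagatcctgggt
Thr-AGT 36 to 71: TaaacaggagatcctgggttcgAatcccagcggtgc
Thr-TGT 60 to 76: tctcgctggggcctCCA
Thr-CGT 59 to 76: accccgtccgtgcctCCA

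Thr-AGT supplied most of the reads. Reads that fit only Thr-AGT references numbered 3338, or 79.5% of all threonine reads, against 324 (7.72%) for Thr-TGT and 101 (2.41%) for Thr-CGT. A further 409 reads (9.74%) fit all 3 anticodons, and 26 reads fit 2 of them. Within Thr-AGT, 2745 reads fit only the identical stretches of AGT-1-1 and AGT-3-1, 515 fit AGT-2-1 alone or with AGT-4-1, and 11 fit only AGT-5-1, AGT-6-1 or AGT-7-1. Reads on near-identical gene copies cannot be split further.

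**Figure D1:**
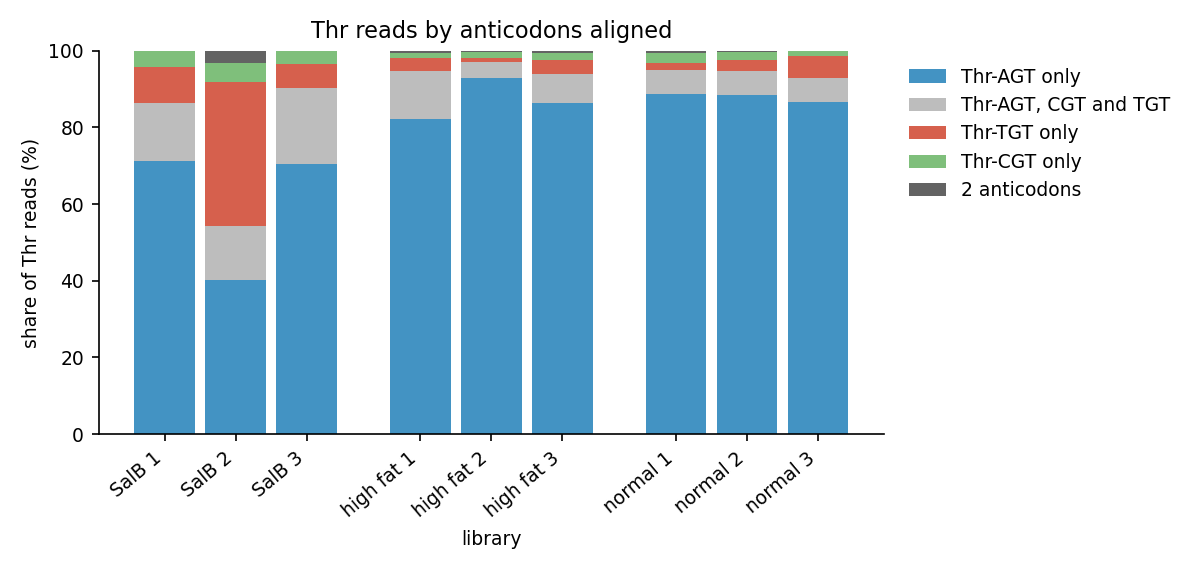
Share of the threonine reads of each library (y axis, %) by the anticodons the reads align to, for the SalB, high fat diet and normal diet libraries (x axis). Thr-AGT took 40.2% to 71.1% of the reads in SalB libraries, 82.3% to 92.8% on high fat diet and 86.6% to 88.8% on normal diet, and SalB replicate 2 held the largest Thr-TGT part, at 37.5%.

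The reads came almost wholly from the 3′ side. Reads reaching the CCA tail numbered 3169, internal reads 1013, and reads from the first base only 16, or 0.381%. The 5′ reads ran from 14 to 33 bases, 9 of them at 14 to 24 bases and 7 at 28 to 36, which is too few to compare lengths between groups. In SalB replicates 1, 2 and 3 there were 2, 2 and 3 of them, in high fat diet replicates 3, 1 and 3, and in normal diet replicates 2, 0 and 0. The counts of 0 among 321 and 831 threonine reads allow shares of up to 0.935% and 0.361%.

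Other nuclear tRNAs in the same libraries, taken as 1 pool, gave other shares of 5′, 3′ and internal reads. The reason was not tested. Over the 9 libraries, 5′ reads made up 0.416 ± 0.285% of threonine reads and 19.6 ± 6.85% of reads on other nuclear mature tRNAs (SD). The threonine share was lower in 9 of 9 libraries (exact sign-flip permutation test, two-sided, p = 0.00391, adjusted p = 0.00587 over 3 measures). The 3′ share was 74.4 ± 11.9% for threonine tRNAs and 40.6 ± 10.2% for the others, higher in 9 of 9 libraries, with the same exact p and adjusted p. The internal share was 25.1 ± 11.8% against 39.8 ± 8.50%, and higher for threonine in 1 of 9 libraries (exact p = 0.00781, adjusted p = 0.00781). These 9 values of each kind share their library with each other.

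The ends of the reads fell on a few positions. Of all threonine reads, 2203 started at 55, the second base of the T loop region printed above as ttcg, and 321 ended at 54, the base just before it. Another 403 reads ran across that step. The most frequent read was the 22-base fragment from 55 to 76, with 1238 reads or 29.5% of the total. Read lengths followed from these ends: 1937 reads (46.1%) had 22 bases, 655 (15.6%) had 18 and 298 (7.10%) had 14. A further 166 reads stopped at 73, just ahead of the tail, and are counted as internal.

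The starts of 3′ fragments were counted for each anticodon. Among 2951 Thr-AGT 3′ reads, 2015 (68.3%) started at 55 and 546 (18.5%) at 59, the base after the T-loop A. Among 161 Thr-TGT 3′ reads, 4 (2.48%) started at 55 and 148 (91.9%) at 59 to 61. SalB replicate 2 held 90 of these Thr-TGT reads, and without it the counts were 4 and 66 of 71. Of 43 Thr-CGT 3′ reads, 37 (86.0%) started at 59. These are totals over libraries of unequal depth and were not tested.

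**Figure D2:**
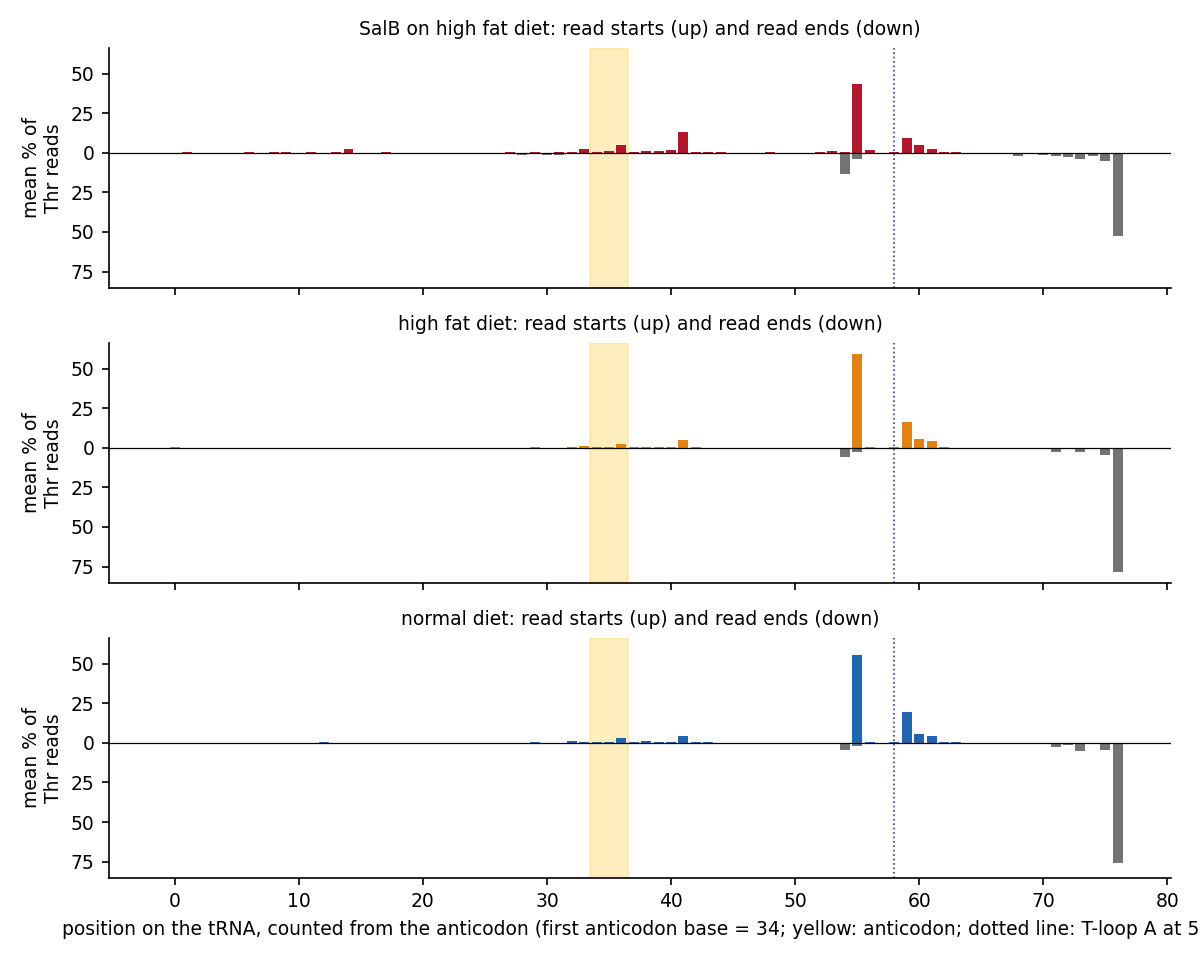
Mean share of threonine reads (y axis, %, mean of 3 libraries) that start (bars up) or end (bars down) at each tRNA position (x axis, counted from the anticodon), for SalB, high fat diet and normal diet. Starts pile up at 55 and at 59 to 61, ends at 76, and a smaller group of reads starts at 41 and ends at 54.

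Threonine reads made up a smaller part of the tRNA reads with SalB. The share was 0.528%, 0.278% and 0.862% in SalB replicates 1, 2 and 3. It was 1.10%, 1.14% and 1.08% on high fat diet, and 1.22%, 1.03% and 0.877% on normal diet. Every SalB library lay below every library of the other groups, and the high fat and normal diet values overlapped. The means were 0.556 ± 0.293% with SalB, 1.11 ± 0.0274% on high fat diet and 1.04 ± 0.172% on normal diet (SD, n = 3 each). An exact permutation test over the 280 ways of splitting 9 libraries into 3 groups gave p = 0.0357 for a difference among the groups (adjusted p = 0.0476 over 16 share measures). Of the 9 single omissions, 6 ended the call (exact permutation p of 0.0643 to 0.0821): those of SalB replicate 2, any 1 high fat diet library and normal diet replicate 2 or 3. Between a single pair of groups, an exact permutation test of 3 libraries against 3 cannot go below p = 0.1, which both SalB pairs reached.

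This share depends on what else the libraries hold. In SalB replicate 2, 42.0% of the tRNA reads lay on 1 precursor, Leu-CAG-3-1, against 2.55% in SalB replicate 1 and 0.0573% in SalB replicate 3. Counted among reads on nuclear mature tRNAs alone, threonine reads made up 0.834%, 0.660% and 1.22% with SalB, 1.21%, 1.27% and 1.19% on high fat diet and 1.35%, 1.14% and 0.975% on normal diet. SalB replicate 3 then overlapped both other groups, and the difference was not called (exact permutation p = 0.186). Fewer threonine fragments and more of other fragments cannot be told apart in shares, and neither can fewer cells shedding tRNA and less tRNA per cell.

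The level of the whole threonine sum was tested together with the sums of all other amino acids. Normalised CPM are reads of a feature over the scaled total of kept reads, on a common scale for all libraries. Scaling was done apart for amino acids, sets of anticodons, origins and fragments (factors of 0.73, 0.573, 0.641 and 0.471 in SalB replicate 2). Levels therefore cannot be added or compared across these groupings. For the threonine sum they were 5125, 3848 and 8133 in SalB replicates 1, 2 and 3. They were 10553, 10162 and 10728 on high fat diet, and 11660, 9952 and 9132 on normal diet. The sum fell with SalB by a log2 fold change of -0.91 ± 0.28 against high fat diet (SE, limma-voom adjusted p = 0.0307) and -0.86 ± 0.28 against normal diet (adjusted p = 0.0351). Among all 56 sums tested, 28.6% and 33.9% were called in these comparisons. Between high fat diet and normal diet the log2 fold change was 0.04 ± 0.28 (adjusted p = 0.986). Fitted on only the libraries compared, the SalB calls were lost (adjusted p = 0.081 against high fat diet and 0.0833 against normal diet). Leaving out SalB replicate 1 or any 1 high fat diet library also ended both calls. Of the 9 single omissions, only those of SalB replicates 2 and 3 kept the call against normal diet.

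Split by anticodon, the fall was seen in Thr-AGT. SalB libraries held 3813, 1984 and 5733 normalised CPM of Thr-AGT, against 8066, 9310 and 8771 on high fat diet and 9614, 8495 and 7830 on normal diet. The SalB values did not overlap either other group. The log2 fold change was -1.30 ± 0.34 against high fat diet (limma-voom adjusted p = 0.0247) and -1.28 ± 0.34 against normal diet (adjusted p = 0.0207). Without SalB replicate 2, the lowest library, the values were -0.90 (adjusted p = 0.00853) and -0.88 (adjusted p = 0.00685). The call against high fat diet was lost without any 1 high fat diet library (adjusted p = 0.0705 to 0.0811), and the call against normal diet without any 1 normal diet library (0.0503 to 0.0732). Both were lost with only the groups compared in the fit (0.0669 and 0.0661). Of the 7 threonine sets of anticodons, 4 passed the filter on low counts. In each SalB comparison 1 of these 4 was called, at a background of 26.2% of 103 sets. No set was called for high fat diet against normal diet, with 0 of 4 also at an unadjusted p under 0.05 and 0 by limma on log2 values.

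The other sets did not pass the test. Thr-TGT stood at 505, 1848 and 517 normalised CPM with SalB, against 337, 94.0 and 380 on high fat diet and 206, 269 and 511 on normal diet. SalB replicate 2 alone held 163 of the 324 Thr-TGT reads. The log2 fold change of Thr-TGT was 1.69 ± 0.68 against high fat diet and did not pass (adjusted p = 0.0848), nor did 1.29 ± 0.63 against normal diet (adjusted p = 0.145). Thr-CGT had a log2 fold change of 0.63 ± 0.39 against high fat diet (adjusted p = 0.245). The set shared by all 3 anticodons had one of 0.27 ± 0.40 (adjusted p = 0.643), which turned to -0.06 with total counts in place of scaling. Whether these changes differ from that of Thr-AGT was tested through shares only. The shares are parts of the same whole, so a lower Thr-AGT share means a higher share of the others together. Their tests are not separate results. Thr-AGT made up 60.6 ± 17.7% of threonine reads with SalB, 87.2 ± 5.28% on high fat diet and 88.0 ± 1.15% on normal diet (SD, n = 3 each, exact permutation p = 0.0286, adjusted p = 0.0416). Leaving out normal diet replicate 1 or 2 or high fat diet replicate 3 raised that p above 0.05. Thr-CGT made up 4.26 ± 0.795%, 1.57 ± 0.0969% and 2.02 ± 0.745% in the same order (exact permutation p = 0.0143, adjusted p = 0.038). That rests on 14, 22 and 12 reads with SalB, 9, 5 and 8 on high fat diet and 14, 7 and 10 on normal diet. Reads that fit more than 1 anticodon made up 17.4 ± 2.23% with SalB, 8.53 ± 4.05% on high fat diet and 6.57 ± 0.0874% on normal diet (exact permutation p = 0.025, adjusted p = 0.04). Leaving out any 1 SalB library raised that p to 0.0607. Thr-TGT made up 9.42%, 37.5% and 6.36% of threonine reads in SalB replicates 1, 2 and 3, and 17.8 ± 17.1% on average, against 2.71 ± 1.54% on high fat diet and 3.45 ± 1.96% on normal diet (exact permutation p = 0.0214, adjusted p = 0.038). Without SalB replicate 2 the SalB mean was 7.89% (exact permutation p = 0.0643), and the log2 fold changes of Thr-TGT were 0.93 and 0.53 (limma-voom adjusted p = 0.154 and 0.347). Leaving out any 1 library of either other group also raised the p of the Thr-TGT share above 0.05 (0.107 to 0.154).

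The parts of the tRNA were then set apart. SalB serum held fewer 3′ and more internal reads among its threonine reads. The 3′ share was 59.9%, 53.3% and 65.6% in SalB replicates 1, 2 and 3, against 78.1%, 88.4% and 82.9% on high fat diet and 81.9%, 79.1% and 80.7% on normal diet. No SalB library reached the lowest value of the others. The groups differed (exact permutation p = 0.0214, adjusted p = 0.038), and this held in all 11 alternatives run. The internal share was 39.7 ± 6.34% with SalB, 16.4 ± 5.10% on high fat diet and 19.3 ± 1.58% on normal diet (SD, n = 3 each, exact permutation p = 0.0179, adjusted p = 0.038). On other nuclear mature tRNAs the 3′ share was also lowest with SalB, at 27.7 ± 4.32%, 46.5 ± 3.28% and 47.6 ± 3.45%. The gap of threonine tRNAs over the others was 31.9, 36.7 and 33.0 percentage points, so the lower 3′ share with SalB is not particular to threonine.

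**Figure D3:**
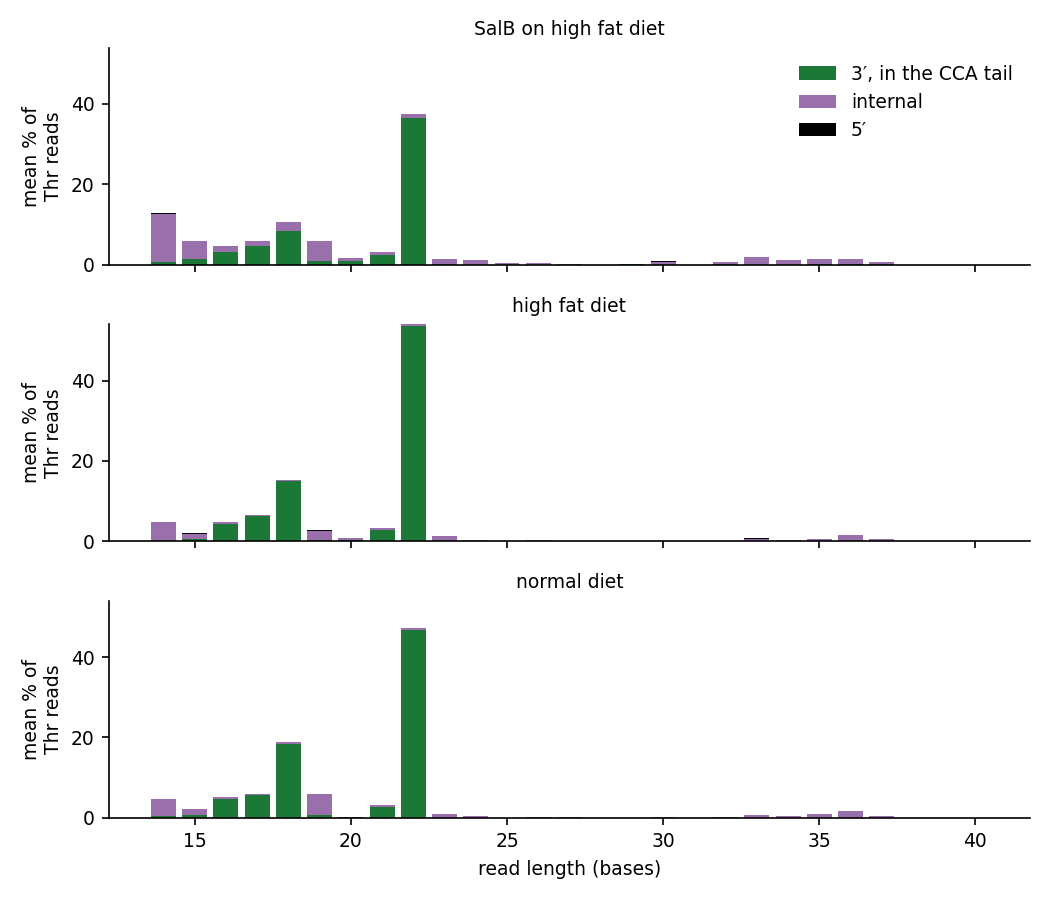
Mean share of threonine reads (y axis, %, mean of 3 libraries) by read length in bases (x axis), stacked by origin, for SalB, high fat diet and normal diet. The 22-base 3′ fragment is the tallest bar in each group, and internal reads of 14 bases stand out with SalB.

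Levels by origin were tested next. Thr-AGT 3′ reads stood at 3345, 1422 and 5188 normalised CPM with SalB, against 7175, 8696 and 8042 on high fat diet and 8889, 7461 and 6612 on normal diet. They fell with SalB, by a log2 fold change of -1.41 ± 0.40 against high fat diet (limma-voom adjusted p = 0.0263) and -1.34 ± 0.40 against normal diet (adjusted p = 0.0268). The call against high fat diet was lost without any 1 high fat diet library (adjusted p = 0.0638 to 0.0891), the call against normal diet without any 1 normal diet library (0.0547 to 0.0814), and both with only the groups compared (0.0673 and 0.0718). Thr-AGT internal reads did not pass (-0.04 ± 0.38, adjusted p = 0.952, against high fat diet), and stood at 980, 381 and 755 normalised CPM with SalB against 586, 664 and 721 on high fat diet. Thr-TGT internal reads rose with SalB against high fat diet by a log2 fold change of 2.04 ± 0.55 (adjusted p = 0.0208). They stood at 351, 732 and 317 normalised CPM with SalB against 154, 31.6 and 170 on high fat diet. Without high fat diet replicate 2, which held 1 such read, the change was 1.44 and not called (adjusted p = 0.0891), nor was it called with no filter (adjusted p = 0.0546). Against normal diet it was 1.34 ± 0.51 (adjusted p = 0.0648), which was called without high fat diet replicate 2 (0.048) or SalB replicate 3 (0.0445). Of 15 threonine sums of 1 origin, 5 were tested. Against high fat diet 2 were called, at a background of 25.6% of 168 sums, and against normal diet 1, at a background of 30.4%.

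Single fragments were then tested. Among 635 threonine sequences, 8 passed the filter, holding 53.8% of the threonine reads. With SalB 3 of the 8 fell against high fat diet, where 16.6% of all 733 fragments fell and 34.2% were called either way. Against normal diet 3 of the 8 fell, where 18.6% of all fell and 39.0% were called. None of the 8 was called for high fat diet against normal diet, with 0 also at an unadjusted p under 0.05 and 0 by limma on log2 values.

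The 18-base fragment from 59 to 76, which starts just after the T-loop A, fell in both SalB comparisons. It had 11, 6 and 9 reads in SalB replicates 1, 2 and 3, against 53, 25 and 33 on high fat diet and 66, 24 and 91 on normal diet. That is 305, 142 and 337 normalised CPM with SalB, 1194, 1084 and 953 on high fat diet and 1857, 1024 and 1265 on normal diet. The highest SalB library, at 337, lay far below the lowest of the others, at 953. The log2 fold change was -2.18 ± 0.44 against high fat diet (limma-voom adjusted p = 0.00446) and -2.50 ± 0.44 against normal diet (adjusted p = 0.00142). It was called under all 16 alternatives in both comparisons.

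Its neighbours, which start 1 and 2 bases further in, had few reads with SalB. The 61 to 76 fragment had 3, 3 and 2 reads with SalB, against 25, 9 and 10 on high fat diet and 13, 12 and 32 on normal diet. Its log2 fold change was -2.22 ± 0.61 (adjusted p = 0.0166) against high fat diet and -2.29 ± 0.60 (adjusted p = 0.0122) against normal diet. The call against high fat diet was lost without SalB replicate 1, SalB replicate 2 or high fat diet replicate 1 (adjusted p = 0.0518, 0.0654 and 0.0534), and the call against normal diet without SalB replicate 2 (0.0515). The 60 to 76 fragment had 4, 3 and 4 reads with SalB, against 13, 9 and 12 on high fat diet and 6, 7 and 21 on normal diet. It fell against high fat diet (-1.60 ± 0.56, adjusted p = 0.046), and that call was lost in 9 of 15 alternatives. Against normal diet it was not called (-1.19 ± 0.57, adjusted p = 0.112).

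The 22-base fragment from 55 to 76, the most abundant of all, did not pass with the scaling and filter used here. It had 82, 63 and 111 reads with SalB, against 189, 121 and 155 on high fat diet and 148, 97 and 272 on normal diet. At 2276, 1487 and 4162 normalised CPM with SalB it lay below the 4257, 5249 and 4475 of the high fat diet libraries, but it overlapped the 4165, 4137 and 3782 of the normal diet. Its log2 fold changes against high fat diet and normal diet were -0.94 ± 0.36 (adjusted p = 0.0613) and -0.74 ± 0.36 (adjusted p = 0.116). It was called in both comparisons with total counts in place of scaling (-1.73, adjusted p = 0.0162, and -1.49, adjusted p = 0.0314) and without SalB replicate 3 (-1.32, adjusted p = 0.00943, and -1.12, adjusted p = 0.0168). With no filter it was called against high fat diet (adjusted p = 0.0436). The same piece of AGT-2-1, which differs at 1 base of the acceptor arm, had 8, 9 and 13 reads with SalB, 19, 11 and 18 on high fat diet and 28, 18 and 34 on normal diet. It fell against normal diet (-1.24 ± 0.42, adjusted p = 0.0355) although the groups overlapped, and that call was lost in 9 of 16 alternatives. It was not called against high fat diet (-0.81 ± 0.43, adjusted p = 0.163).

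The other 3 fragments tested did not pass in the fit over 9 libraries. The 55 to 73 fragment had a log2 fold change of -0.33 ± 0.58 against high fat diet (adjusted p = 0.669) and -1.23 ± 0.51 against normal diet (adjusted p = 0.0743), where total counts in place of scaling gave an adjusted p of 0.00633. The 55 to 76 fragment with the substitution A76G at its last base (the reference base, the position and the base read) had one of -0.89 ± 0.53 against high fat diet (adjusted p = 0.207), and with total counts its adjusted p was 0.0213. Last bases were mismatched in 14.4% of threonine reads and other interior bases in 0.571%, and whether a changed last base was in the RNA was not tested. The shared 14-base piece from 41 to 54 had 611, 567 and 1350 normalised CPM with SalB against 631, 86.8 and 462 on high fat diet and 422, 213 and 320 on normal diet. Its log2 fold change was 0.98 ± 0.57 against high fat diet (adjusted p = 0.199) and 1.21 ± 0.55 against normal diet (adjusted p = 0.0993).

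**Figure D4:**
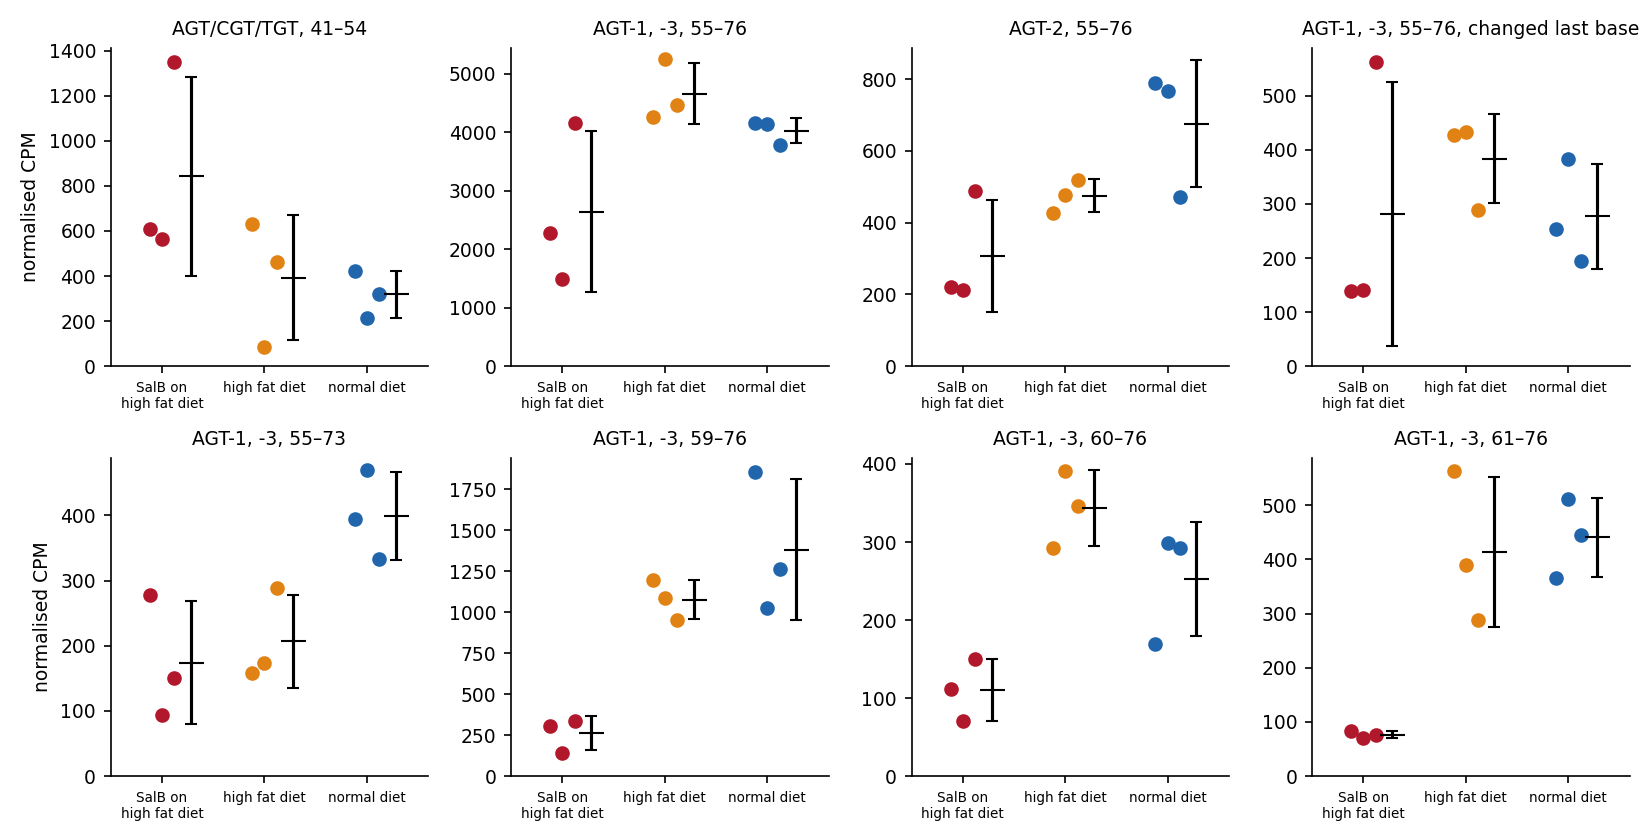
Normalised CPM (y axis) of the 8 tested threonine fragments in each library, with SalB on high fat diet, high fat diet and normal diet from left to right (points, libraries; bars, mean ± SD, n = 3). Titles give the tRNA and the positions, and the 59 to 76 and 61 to 76 panels show the SalB libraries below all others.

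Within Thr-AGT 3′ reads, starts at 59 to 62 were scarcer with SalB, a measure that no scaling factor touches. They were 36 of 181, 17 of 138 and 32 of 213 reads in SalB replicates 1, 2 and 3. On high fat diet they were 153 of 465, 76 of 275 and 108 of 379 reads, and on normal diet 164 of 417, 68 of 243 and 223 of 640. The means were 15.7 ± 3.84% with SalB, 29.7 ± 2.83% on high fat diet and 34.1 ± 5.71% on normal diet (SD, n = 3 each). The highest SalB library, at 19.9%, lay below the lowest of all others, at 27.6%. The groups differed (exact permutation p = 0.0107, adjusted p = 0.038), and the difference held in all 11 alternatives.

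Some internal reads took a larger part of all threonine reads with SalB, as internal reads did together. Among internal reads alone, pooled over libraries of unequal depth, 149 of 447 ended at 54 with SalB. It was 94 of 246 on high fat diet and 78 of 320 on normal diet. Starts at 32 to 38 were 121, 88 and 104 of the same totals. Shifts of position among internal reads were not tested. Reads ending at 54, the base before the main 3′ start, made up 13.7 ± 3.25% of threonine reads with SalB, 5.97 ± 3.34% on high fat diet and 4.44 ± 1.22% on normal diet (SD, n = 3 each, exact permutation p = 0.0179, adjusted p = 0.038). Leaving out SalB replicate 1 or 3 raised that p to 0.0536 and 0.0571. Internal reads starting in the anticodon loop, at 32 to 38, made up 14.3%, 10.1% and 8.67% in SalB replicates 1, 2 and 3, against 6.87%, 5.94% and 5.62% on high fat diet and 5.71%, 7.48% and 6.02% on normal diet (exact permutation p = 0.0214, adjusted p = 0.038). That p was 0.0536 to 0.0714 without any 1 library of the high fat or normal diet. Reads of 28 bases or more were mostly of this kind: 174 of 207 internal ones started at 32 to 38. The most frequent was the 36-base piece from 36 to 71, with 23 reads, which ends short of the tail.

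**Figure D5:**
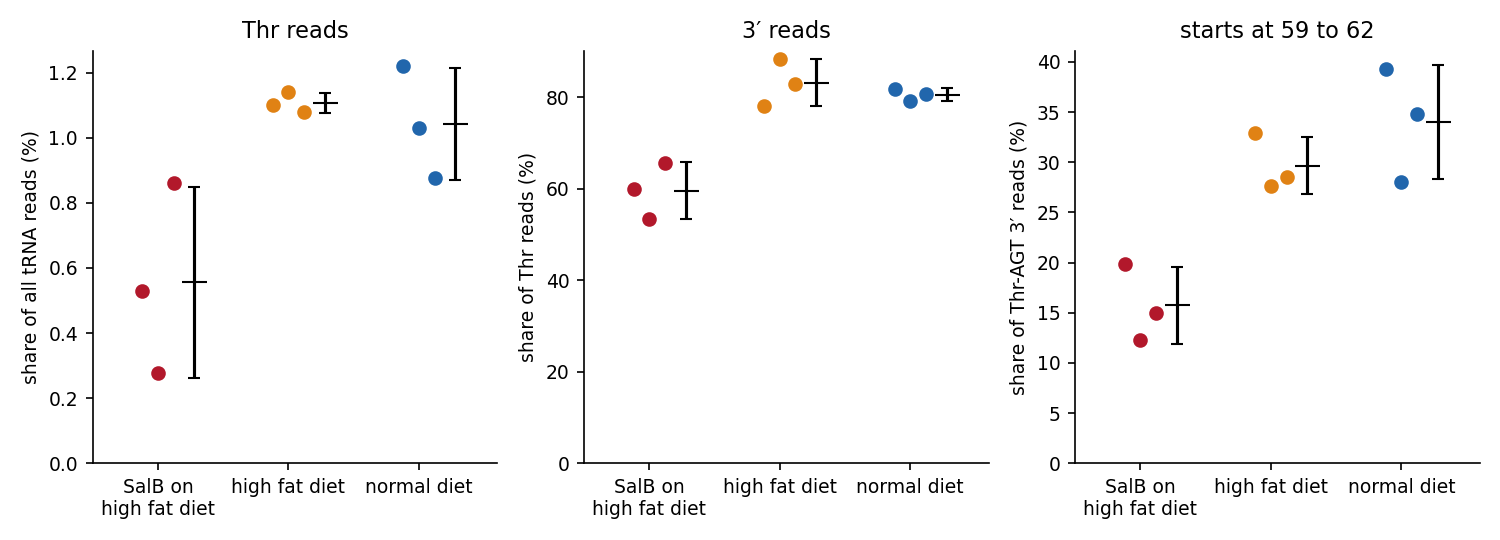
Shares per library (points; bars, mean ± SD, n = 3) with SalB on high fat diet, high fat diet and normal diet from left to right: threonine reads among all tRNA reads, 3′ reads among threonine reads, and starts at 59 to 62 among Thr-AGT 3′ reads (y axes, %). The SalB libraries lie below all others in each panel.

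Several measures did not pass the test over all 9 libraries, though each was called without 1 library. The full CCA tail was present on 87.2 ± 7.61% of threonine 3′ reads with SalB, 94.2 ± 1.33% on high fat diet and 94.0 ± 1.41% on normal diet (exact permutation p = 0.143, adjusted p = 0.143, n = 3 each), with SalB replicate 2 lowest at 78.9%. Without SalB replicate 3 the p was 0.0357. The 22-base reads were 402 of 1110 threonine reads with SalB, 747 of 1411 on high fat diet and 788 of 1677 on normal diet, with overlap between the libraries of all groups (exact permutation p = 0.0964, adjusted p = 0.103). Without SalB replicate 3 the p was 0.00714. The 5′ share was 0.645 ± 0.206% with SalB, 0.476 ± 0.157% on high fat diet and 0.127 ± 0.220% on normal diet (exact permutation p = 0.0607, adjusted p = 0.0694). Its SalB and normal diet libraries did not overlap (exact permutation p = 0.1, the lowest possible), and without normal diet replicate 1 the p among the groups was 0.0286. It rests on 16 reads in all.

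Gene copies of Thr-AGT were compared through their 3′ reads. The measure was the share of AGT-2 and AGT-4 among Thr-AGT 3′ reads that fit only this pair or only AGT-1 and AGT-3. That share was 18.2%, 16.4% and 16.2% with SalB, 11.8%, 8.46% and 14.1% on high fat diet and 14.2% to 16.4% on normal diet. Here the high fat diet libraries were the low ones, and the groups differed (exact permutation p = 0.00714, adjusted p = 0.038). Without normal diet replicate 3 the p was 0.0536. It was 0.05, not under the threshold, without normal diet replicate 2, SalB replicate 1 or SalB replicate 2.

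Modified positions left marks in the reads. At 34, reads on the 77-base references showed G in 73 of 75 (97.3%, exact 95% interval 90.7% to 99.7%) and T in 2. The A that Thr-AGT encodes there was read in 0. The T reads were 1 each in SalB replicates 1 and 2. So were the 2 reads set first on Thr-TGT-1-1, whose anticodon encodes that T. The 97.3% is therefore not a share for Thr-AGT alone. An example is this read, in which capitals mark the anticodon and which carries A34G.
Thr 32 to 54, A34G: ctGGTaaacaggagatcctgggt
All 73 G reads fell in the set shared by the 3 anticodons, of which they made up 17.8%, because a G at 34 is 1 mismatch from each. The deposited alignments allow 1 mismatch, so a read with G at 34 could show no second change. At 32 the 77-base references showed C in 41 of 41 reads, but all 41 also covered 34 and 39 of them had G there. On the 75- and 76-base references, whose 34 was read as C or T, 9 of 23 reads (39.1%) had another base than C at 32, 8 of them a T. At 37 the A was read as A in 209 of 210 reads on the 77-base references. Reads over 32 or 34 numbered under 20 per library, so no group comparison was made there.

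At 58 the A was read as another base in 73 of 2439 reads on the 77-base references, 52 of them T, 18 G and 3 C. The commonest such read carries A58T and had 1, 0 and 3 reads with SalB, 3, 10 and 7 on high fat diet and 6, 6 and 8 on normal diet.
Thr-AGT 55 to 76, A58T: tcgTatcccagcggtgcctCCA
Over all threonine references the changed share was 0.493%, 0.543% and 1.82% with SalB, 2.29%, 4.95% and 3.59% on high fat diet and 3.10%, 6.07% and 3.27% on normal diet. Every SalB library lay below every other library, but the difference among the groups did not pass (exact permutation p = 0.0536, adjusted p = 0.066). It was 0.0429 without normal diet replicate 2 and 0.0357 without high fat diet replicate 2. The SalB values rest on 6 changed reads of 607.

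Other tRNAs that share these features were described beside threonine. Over all 103 sets, 11.7% rose and 14.6% fell with SalB against high fat diet, and 15.5% rose and 10.7% fell against normal diet. Of 7 other tRNAs with an A at 34, 5 were tested: against high fat diet 0 rose and 2 fell with SalB, Ala-AGC (-0.85 ± 0.20, limma-voom adjusted p = 0.0156) and Arg-ACG (-0.93 ± 0.22, adjusted p = 0.0156). Not called were Val-AAC (-0.87 ± 0.35, adjusted p = 0.082), Ile-AAT (0.36 ± 0.22, adjusted p = 0.229) and Leu-AAG (1.05 ± 0.41, adjusted p = 0.082), of which the last 2 went up. The median log2 fold change of the 5 was -0.85, against 0.19 over all 103 sets. Against normal diet the same 2 fell, with a median of -0.70 against 0.21. Of 11 other tRNAs that read codons beginning with A, counted as 11 tested sets, 1 rose against high fat diet (iMet-CAT, 0.73 ± 0.23, adjusted p = 0.0407) and 1 fell (Arg-CCT, -0.70 ± 0.22, adjusted p = 0.0407), with a median of 0.32. Against normal diet 3 rose and 0 fell, with a median of 0.17. Of 6 sets known for a methylated C at 32, 0 rose and 1 fell (Arg-CCT again) against high fat diet, with a median of 0.17, and 0 moved against normal diet, with a median of -0.22. None of the 3 lists had a call for high fat diet against normal diet.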

How the data were processed

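Total RNA of serum was isolated with TRIzol and made into libraries with a kit for tRNA fragments, with adapter ligation and gel selection, and sequenced on an Illumina NextSeq 500, per the labels' protocols. The submitters' processing notes name FastQC, cutadapt, Bowtie, edgeR and the build mm10. The sources used here give no roles or settings. Each deposited file lists alignments of 1 library to mature and precursor tRNA references, with the read count inside each read name, reads of 14 to 40 bases and at most 1 mismatch. Totals are tRNA reads (28191 to 156333 per library), not library depth.

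Each read was counted once. Threonine references were laid on the usual numbering by their anticodon and tail. Reads were summed by amino acid, by set of anticodons, by origin and by sequence. Each whole table was tested by limma-voom (limma 3.58.1, R 4.3.3) with trimmed mean of M values scaling, in 1 fit over 9 libraries, two-sided, Benjamini-Hochberg adjusted at 0.05. The filter asked for 10 reads, scaled to the median library (44415 reads), in 3 libraries, and for 15 reads in total. The limma-voom test was checked on simulated fragment counts that gave every library the same spread, which the real libraries do not have. Shares were compared by exact permutation (SciPy 1.17.1), adjusted over 16 measures. Those of start and end positions and of gene copies were not in the plan. Intervals are exact binomial (95%), floors are 3 reads, and both cover counting error only. Named fragments were the 10 most abundant, any called, and the 3 of smallest p where none was called. Sequences shown beside them were chosen after their values were seen. The members and lists were chosen with earlier results of these data known. Within groups, libraries differed beyond sampling noise (chi-square per degree of freedom 2.30 to 31.0), so none was merged. Alternatives were other scaling, filters, tests, read choices and denominators, a replicate block, and each library left out.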

Additional observations from a re-analysis of the deposited data

Results flagged for a closer look

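Reads on the mitochondrial threonine tRNA, which lie outside the comparisons above, were more frequent with SalB than on normal diet. They stood at 347 ± 122 CPM of all tRNA reads with SalB and 134 ± 43.4 on normal diet (SD, n = 3 each), from 76 and 25 reads. In SalB replicates 1, 2 and 3 they made up 0.0337%, 0.023% and 0.0473% of tRNA reads, against 0.0093%, 0.0129% and 0.0179% on normal diet. An item was flagged only if every library of a group lay above every normal diet library. The lack of overlap between SalB and normal diet was therefore fixed by the choice. The high fat diet libraries, at 0.00901%, 0.0355% and 0.00901%, overlapped the SalB libraries. The difference was not tested.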

How the results depend on the processing

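Recomputing 71 results gave 1110 alternative values. Of the results that answer a comparison, 237 values kept their direction and side of the threshold, 27 moved, 24 lost a call, 3 gained one and 3 reversed. Of single sets and fragments 737 kept both, 40 lost a call, 12 gained one and 27 reversed. Shares of single anticodons and positions were left out library by library after the data were seen.

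The threonine sum for high fat diet against normal diet (0.04) turned to -0.01 with RLE size factors and ran from -0.04 to 0.13 with 1 library left out. With SalB the sum ran from -1.23 to -0.69 against high fat diet and from -1.19 to -0.64 against normal diet. Its call was lost with only the groups compared (-0.91 and -0.87) and, against normal diet, with total counts (-1.04, adjusted p = 0.0628). With only the groups compared, called sets went to 0 in both SalB comparisons, and called sums of 1 origin to 1 against high fat diet and 0 against normal diet. That count was also 1 with no filter and with the stricter filter against high fat diet. Called fragments were 6 with total counts in both SalB comparisons and 7 with no filter against high fat diet. With 1 library left out, called sets ran from 0 to 1, sums of 1 origin from 0 to 2 and fragments from 1 to 3 (against high fat diet) and 1 to 4 (against normal diet). The threonine share moved to -0.319 percentage points (SalB minus high fat diet, exact permutation p = 0.186) on nuclear mature reads and ran from -0.702 to -0.411 with 1 library left out. The same omissions gave ranges for the Thr-AGT share (-31.8 to -16.4), the 5′ share (0.0577 to 0.261), the full CCA share (-10.4 to -2.91) and the 22-base share (-22.8 to -9.08). The 5′ share turned to -0.314 in reads with no mismatch.

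Reversals among values not called were these. For high fat diet against normal diet, leaving out 1 library gave Thr-AGT -0.06 to 0.10, the shared set -0.01 to 0.66, Thr-CGT -0.65 to 0.10, Thr-TGT -0.73 to 0.12, shared internal reads -0.09 to 0.61, Thr-AGT 3′ reads -0.04 to 0.18, Thr-TGT 3′ reads -0.67 to 0.26, the 41 to 54 fragment -0.33 to 0.72 (-0.02 with limma on log2 values) and the 61 to 76 fragment -0.38 to 0.18. For SalB against high fat diet they gave the shared set -0.06 to 0.64 (-0.06 with total counts), Thr-AGT internal reads -0.35 to 0.41 (0.01 with limma on log2 values) and the 55 to 73 fragment -0.73 to 0.17. Shared internal reads turned to -0.02 with total counts. For SalB against normal diet they gave Thr-CGT -0.03 to 0.73, Thr-TGT 3′ reads -0.01 to 1.59 and the A76G fragment -0.70 to 0.04. The cause was not tested.

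The replicate numbers share only a number: deviations of same-numbered libraries correlated at -0.306 to 0.153. With the replicate block, the threonine sum was -0.94 against high fat diet (adjusted p = 0.0418) and -0.88 against normal diet (adjusted p = 0.0499), 1 set was called in each SalB comparison and 3 fragments fell against high fat diet. Against normal diet 2 fragments fell and the 41 to 54 fragment rose (1.38, adjusted p = 0.0381), while the AGT-2 fragment was not called (adjusted p = 0.0593). Thr-AGT internal reads turned to 0.00. Depth limits the 5′ reads (16) and the reads over the anticodon (75), among others. Features that failed a stricter filter gave no value there.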

Other observations

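Reads on threonine precursor tRNAs numbered 85, 94 and 35 in SalB replicates 1, 2 and 3, against 61, 29 and 40 on high fat diet and 40, 30 and 71 on normal diet. Per 100 mature threonine reads that is 25.8, 21.6 and 10.1 with SalB, 9.98, 9.06 and 8.33 on high fat diet and 7.62, 9.35 and 8.54 on normal diet. SalB replicate 3 lay close to the other groups. As a share of tRNA reads the precursor reads overlapped between groups.

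SalB replicate 2 held Thr-TGT pieces that the other libraries scarcely held. Of its 163 Thr-TGT reads, 35 (21.5%) started at 14 to 18, in the D arm. The high fat diet libraries had 0 such reads among 42 and the normal diet libraries 2 among 66. The same library held 12 of the 13 reads shared by Thr-CGT and Thr-TGT alone.

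Among the other 55 amino acid sums, those of Pro, Arg and Cys followed the threonine sum most closely over the 9 libraries, with Pearson correlations of log2 levels of 0.99, 0.93 and 0.90. These are descriptions over libraries that share depth and scaling, with no test.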
